A study of Mus musculus with 10 samples.

Results

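The sites described here were the strong Rad21 binding sites of wildtype AB17 hepatocytes that had no Ctcf binding site close by. Rad21 is the subunit that closes the cohesin ring, and Ctcf is the zinc-finger protein that halts cohesin as it extrudes chromatin loops. A site was taken when its Rad21 summit (the base of highest signal in a peak) lay on an autosome, had a value of at least 5 on the −log10 q scale of the peak caller, and had no Ctcf summit within 1 kb. This rule gave 2859 summits, 2.86% of the 100056 autosomal Rad21 summits and 11.0% of the 25899 strong ones. The other 23040 strong summits had Ctcf within 1 kb, and 45423 weaker Rad21 summits had none.

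AB17 cells are primary hepatocytes of a C57BL/6 Arid1a fl/fl mouse, immortalized with SV40 large T antigen, transduced with an H-Ras V12D virus and selected with puromycin, so every group below carried these changes and came from 1 line. Adenovirus with GFP (Ad-GFP) gave the wildtype (WT) cells and adenovirus with Cre (Ad-Cre) gave the Arid1a-/- (KO) cells. Chromatin immunoprecipitation sequencing (ChIP-seq) lists were used for Rad21, Ctcf, Brg1 and Arid1a in WT cells and for H3K27me3 and H3K9me3 in WT and in KO cells. Of the 10 samples, 8 had a list and 2 were inputs, with 1 library per group, so no test between groups was possible and each share below carries a 95% Wilson interval for counting error only. Rad21, Ctcf, Brg1 and Arid1a were profiled in WT cells alone among the lists used, so nothing below measures Rad21 in KO cells. The autosomal lists held 70157 to 141657 summits, sequencing depth is unknown, and the lists hold no expression values with which the hepatocyte label could be checked.

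Cohesin is loaded on chromatin by Nipbl and moves along it until it meets Ctcf bound in the blocking orientation, where it accumulates, and for this reason most strong cohesin sites in mammalian cells lie on Ctcf sites. Cohesin is also found at active promoters and enhancers, together with its loader, Mediator and tissue transcription factors. Brg1 is an ATPase of the SWI/SNF chromatin remodelling complex and Arid1a is a DNA-binding subunit of its BAF form. H3K27me3 is laid down by Polycomb at silent developmental genes, and H3K9me3 marks constitutive heterochromatin and repeats.

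The sites were chosen by their Rad21 value and their distance to Ctcf, and these values are given as a description. The Rad21 value had a median of 6.25, quartiles of 5.47 and 8.23, and a highest value of 92.4. It reached 10 at 522 sites and 20 at 201 sites. The sites were therefore mostly near the lower limit, and 901 lay between 5 and 5.5, where 1661 Ctcf-free summits lay just below the limit at 4.5 to 5. Peak-caller values come in steps, and the single value 5.47 was shared by 417 sites. Just inside the limit stood the summits near Gm21738 and Micall2, with 5.01, and just outside it one near Ppp1r35, with 4.98. On the Ctcf side, 366 sites had their nearest Ctcf summit between 1 kb and 1200 bp and 436 strong summits with Ctcf had it at 800 to 1000 bp. The summits near Nenf, Bloc1s2 and Qk, at 1000 bp, stood just outside, and those near Nav3 and Clock, at 1001 bp, just inside.

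The distance to Ctcf split the sites unevenly. In 2231 of them a Ctcf summit lay 1 to 5 kb away, in 628 there was none within 5 kb, and in 251 none within 20 kb. The median distance was 2092 bp and the longest 877418 bp. The neighbouring Ctcf summits of the near sites were strong, with a median value of 24.7, whereas those of the far sites had a median of 4.02. At 73.0% of the near sites the neighbouring Ctcf summit had a Rad21 summit of its own within 1 kb. The share was 64.1% for weaker summits without Ctcf. It was 82.8% for all Rad21 summits, where those with Ctcf within 1 kb count by construction. Another Rad21 summit lay within 5 kb of 94.7% of the near sites and of 54.3% of the far sites. All Rad21 summits had one at 72.0%, strong summits with Ctcf at 78.3% and weaker summits beyond 5 kb from Ctcf at 35.0%. The label thus describes the 1 kb window. Most sites stood in the surroundings of a Ctcf site that carried Rad21, which was not particular to them. Of the 522 sites with a Rad21 value of at least 10, 488 were near sites and 34 were among the 628 far ones.

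**Figure D1:**
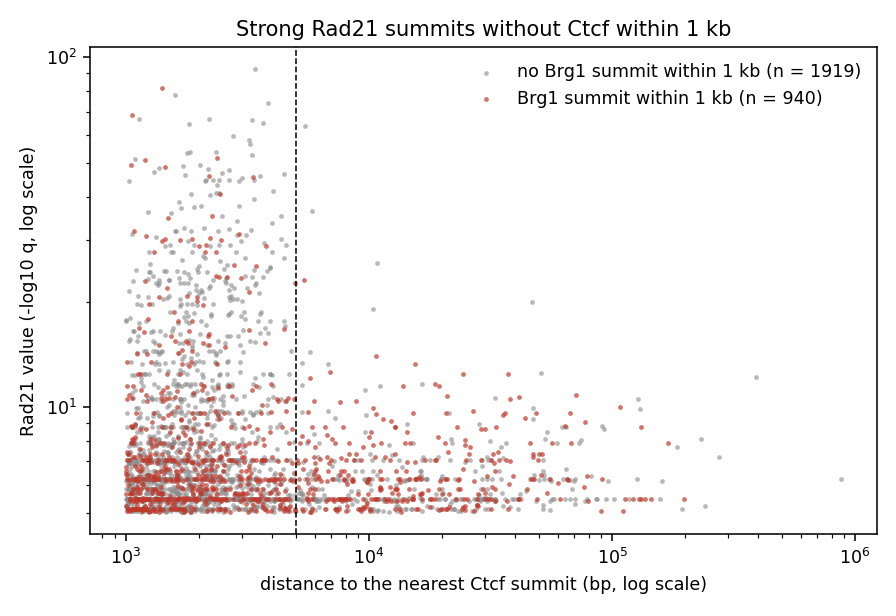
Rad21 value (−log10 q, log scale) of each of the 2859 sites against the distance to its nearest Ctcf summit (bp, log scale), coloured by whether a Brg1 summit lay within 1 kb (940 sites) or not; the dashed line stands at 5 kb. Values of at least 20 lie almost all to the left of the line, and horizontal rows are values that many sites share.

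A CTCF motif was frequent under the sites of high Rad21 value. A relaxed CTCF core, read as CC, any 3 bases, AG, any 2 bases and GGC on either strand, was searched within 50 bp of each summit. The following windows of 101 bases (mm10, reference sequence read 5′ to 3′ on the strand named, matching letters in capitals) hold it. Only windows that hold the core were taken. Of these, the windows at D630003M21Rik, Slc24a3 and Wdr18 are shown for being among the highest sites with Ctcf at 1 to 5 kb. Those at Prf1 and Rac2 are shown because they are among the highest sites with none within 5 kb, and were picked after their values were seen.

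D630003M21Rik, chr2:158204260-158204360, minus strand: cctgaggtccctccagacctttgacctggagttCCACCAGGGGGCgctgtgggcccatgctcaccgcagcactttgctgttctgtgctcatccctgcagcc
Slc24a3, chr2:145168176-145168276, plus strand: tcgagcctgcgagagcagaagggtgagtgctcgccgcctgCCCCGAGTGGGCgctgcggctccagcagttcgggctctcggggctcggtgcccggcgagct
Wdr18, chr10:79958228-79958328, minus strand: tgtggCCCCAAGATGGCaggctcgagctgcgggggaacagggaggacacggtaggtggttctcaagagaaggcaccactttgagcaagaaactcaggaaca
Prf1, chr10:61336202-61336302, minus strand: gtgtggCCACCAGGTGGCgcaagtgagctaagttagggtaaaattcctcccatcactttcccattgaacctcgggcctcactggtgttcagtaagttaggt
Rac2, chr15:78582047-78582147, minus strand: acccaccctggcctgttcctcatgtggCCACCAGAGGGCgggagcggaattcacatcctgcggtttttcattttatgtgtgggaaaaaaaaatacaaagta

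The summit near D630003M21Rik had a Rad21 value of 65.1 with the nearest Ctcf summit 3668 bp away. The summit 472 bp downstream of the start of Slc24a3, a sodium-calcium exchanger gene, had a value of 66.8 and a Ctcf summit at 1131 bp. Wdr18 had a summit of 53.3 and a Ctcf summit at 1787 bp. Near Prf1, which encodes perforin, the value was 63.8 and Ctcf lay at 5433 bp, and this summit stood in a soft-masked repeat. Near Rac2, a small GTPase gene, the value was 23.1 and Ctcf lay at 5393 bp. By this choice each of the 5 windows had a CTCF core within 40 bp of its Rad21 summit, with no Ctcf summit listed within 1 kb. The marked letters at Wdr18 also contain the full letters AAGATGGC of the YY1 motif, so CTCF and YY1 cannot be told apart there. Of the 10 highest sites by Rad21 value, those near Fam241b, Slc24a3, D630003M21Rik and Elovl3 held the core. The others, led by those near Krt8, Gtf3a and P4ha1, did not. Of the highest sites beyond 5 kb, those near Prf1 and Rac2 held it and those near Zfp704 and Gng7 did not.

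Over all sites, 10.3% held the core (9.22 to 11.5%, 294 of 2859), where 9.15% of all autosomal Rad21 summits, 25.5% of strong summits with Ctcf, 2.08% of weaker summits without Ctcf and 1.01% of all autosomal windows of the same length did. The share among sites with Ctcf at 1 to 5 kb was 11.6% (10.3 to 13.0%) and among those beyond 5 kb 5.57% (4.03 to 7.65%), a difference of -6.04 percentage points with a 95% Newcombe interval of -8.11 to -3.60. Within the near sites the core followed the Rad21 value. It was present at 28.3% of those with a value of at least 10 and at 6.94% of those with 5 to 10, a difference of 21.3 points (17.3 to 25.6). At a Rad21 value of at least 20 the share was 37.8%, beside 37.0% of the strong summits with Ctcf at the same values. Only 3.22% of the sites had the core both at the Rad21 summit and at the nearest Ctcf summit, beside 19.1% of the strong summits with Ctcf, for many of which the 2 windows overlap. A match is a description of letters, and Ctcf occupancy below the caller's threshold was not measured.

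Distance to Ctcf set out the same contrast among all strong Rad21 summits. The core was at 33.4% of summits within 100 bp of Ctcf, at 5.51% of those at 250 to 500 bp, at 15.4% of those at 2 to 3 kb and at 4.19% of those at 20 to 50 kb. The share thus fell, rose again outside the 1 kb limit and fell once more beyond 5 kb. The Brg1 share followed another course: 21.3% within 100 bp, 36.0% at 500 to 1000 bp, 23.6% at 1500 to 2000 bp, 52.2% at 5 to 10 kb, and 35.7% (26.3 to 46.4%) at the 84 summits beyond 50 kb.

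**Figure D2:**
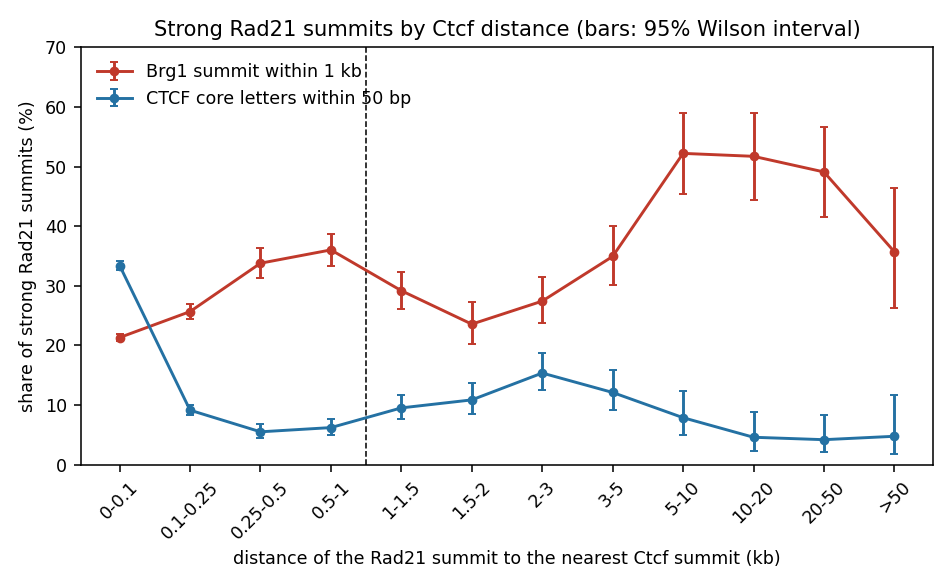
Share (%) of strong Rad21 summits with a Brg1 summit within 1 kb (red) and with the CTCF core within 50 bp (blue) in 12 bins of distance to the nearest Ctcf summit (kb), with 95% Wilson intervals; the sites described here lie to the right of the dashed line at 1 kb. The blue points have a lower second peak at 2 to 3 kb (15.4%) and the red points are highest at 5 to 20 kb (52.2% and 51.7%).

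Brg1 and Arid1a were found more often at these sites than at other Rad21 summits. A Brg1 summit lay within 1 kb of 32.9% of the sites (31.2 to 34.6%, 940 of 2859), beside 22.5% of all autosomal Rad21 summits and 23.7% of strong summits with Ctcf. The difference to the latter was 9.16 points (7.37 to 11.0). Arid1a was within 1 kb of 27.4% (25.8 to 29.1%, 783 sites), beside 18.2% of all Rad21 summits and 18.5% of those with Ctcf, a difference of 8.85 points (7.17 to 10.6). Both proteins together were at 18.6% (533 sites), beside 9.71% of all Rad21 summits. Of all autosomal bases, 6.06% lay within 1 kb of a Brg1 summit and 5.32% within 1 kb of an Arid1a summit. The shared 1 kb window is wide: the median distance from the Rad21 summit to the Brg1 summit was 310 bp, and 16.2% of the Brg1 summits were no more than 100 bp away, against 10.045% for positions placed evenly in it, 15.3% at all Rad21 summits and 15.9% at strong summits with Ctcf. The Brg1 summits were of modest height, with a median value of 3.10 and a highest value of 20.3.

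Brg1 and Arid1a were more frequent beyond 5 kb from Ctcf than nearer to it. Beyond 5 kb, 49.0% of the sites had Brg1 (45.2 to 52.9%) and 41.2% had Arid1a (37.5 to 45.1%), whereas at 1 to 5 kb 28.3% and 23.5% did. The difference in Brg1 was 20.7 points (16.4 to 25.03) and in Arid1a 17.8 points (13.6 to 22.0). Weaker Rad21 summits equally far from Ctcf had Brg1 at 21.6%, 27.4 points less (23.5 to 31.3). Promoters held 54.9% of the far sites and 21.3% of these weaker summits, and that difference was not taken within promoters. Promoters, where Brg1 was frequent in every set, also moved with the contrast of far and near sites, so that contrast was taken within them. At promoters, 61.2% of the far sites, 46.5% of the near sites and 41.5% of the strong summits with Ctcf had Brg1. Outside promoters these shares were 34.3%, 17.99% and 16.4%. The far sites exceeded the near ones in both settings, by 14.6 points (8.35 to 20.7) and 16.3 points (10.6 to 22.3).

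The Rad21 value moved with it too. Among sites with values of 5 to 10, 34.6% had Brg1, beside 24.8% of the strong summits with Ctcf at the same values, a difference of 9.86 points (7.77 to 11.98). From 10 upward the shares were 25.1% and 22.9%, and the interval of their difference, -1.44 to 6.12 points, included 0. At values of at least 20 the sites had Brg1 at 20.4% (15.4 to 26.5%) and the strong summits with Ctcf at 24.1% (23.1 to 25.2%). Arid1a took the same course: from 10 upward it was at 17.8% and 16.9%, with an interval of the difference of -2.21 to 4.47 points, and from 20 upward at 10.4% (6.94 to 15.4%) of the sites and 17.3% (16.4 to 18.2%) of the summits with Ctcf. Of the 522 sites with values of at least 10, 488 were near sites, so Rad21 value and Ctcf distance are not separated here. Within these 522, Brg1 and Arid1a remained more frequent at the 34 far sites than at the near ones. Taken without regard to Ctcf distance, the higher shares of Brg1 and Arid1a were thus not seen among the strongest sites.

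**Figure D3:**
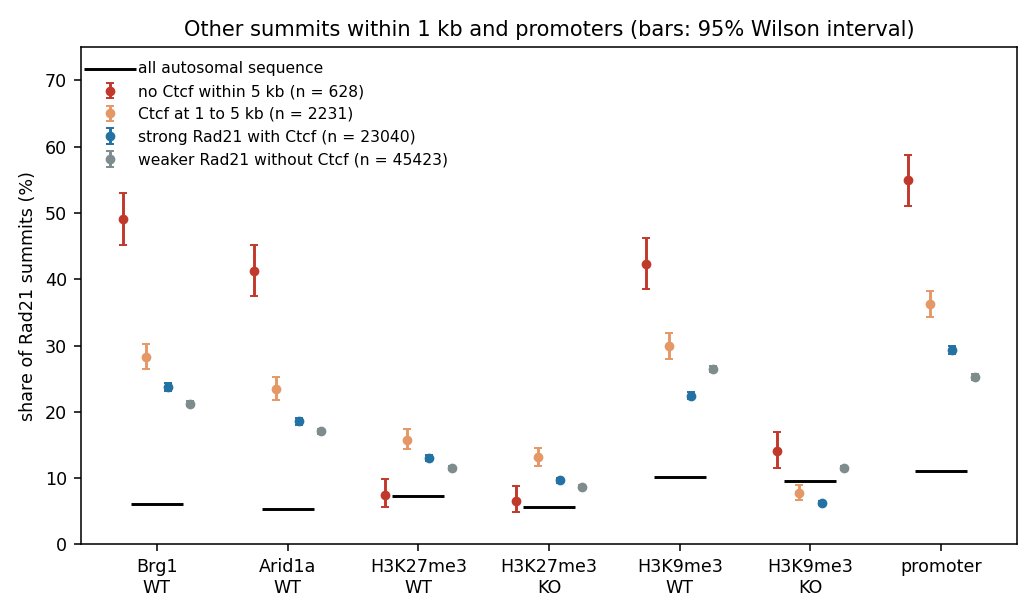
Share (%) of Rad21 summits with a summit of each other list within 1 kb, and at promoters, for the sites with no Ctcf within 5 kb (red), those with Ctcf at 1 to 5 kb (orange), strong summits with Ctcf (blue) and weaker summits without Ctcf (grey), with 95% Wilson intervals; black lines give the share of all autosomal bases. The red points are the highest for Brg1 (49.0%), Arid1a (41.2%) and promoters (54.9%) and the lowest for H3K27me3 (7.48% in WT).

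Promoters, taken as the bases within 2 kb of any of 125891 annotated transcript starts, held 40.3% of them (38.5 to 42.1%, 1153 sites), beside 28.3% of all Rad21 summits, 29.3% of strong summits with Ctcf and 11.1% of autosomal bases. Exons held a further 3.5%, introns 25.3% and intergenic sequence 30.9%. The promoter share was 54.9% beyond 5 kb from Ctcf and 36.2% at 1 to 5 kb, and it was 32.4% among sites with a Rad21 value of at least 10. The sequence was rich in G and C: the median GC content over 250 bp on each side was 50.7%, where the autosomal genome has 41.9%. All Rad21 summits and strong summits with Ctcf each had a median of 47.7%. At far promoter sites it was 61.7%, and at strong promoter summits with Ctcf 53.3%. Soft-masked repeat bases held 16.3% of the sites, 14.4% of strong summits with Ctcf, 21.8% of all Rad21 summits and 32.6% of the genome. Chromosome 14 had the lowest density of sites, 0.304 per Mb, and chromosome 19 the highest, 2.59, while the share of strong Rad21 summits that lacked Ctcf ran from 5.41% on chromosome 13 to 15.2% on chromosome 19.

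GC boxes and, outside promoters, AP-1 letters were more frequent under the far sites than under the near ones. The following windows are shown for 2 of the far sites with high values or early-response genes, and for Fosl2 as a near one. They hold the AP-1 letters TGANTCA (Zfp704) or the GC box GGGCGG of SP and KLF factors (Ier5 and Fosl2), in capitals, in the reference orientation named.

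Zfp704, chr3:9705277-9705377, plus strand: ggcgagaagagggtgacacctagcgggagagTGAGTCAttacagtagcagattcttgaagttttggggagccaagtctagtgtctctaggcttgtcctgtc
Ier5, chr1:155099109-155099209, plus strand: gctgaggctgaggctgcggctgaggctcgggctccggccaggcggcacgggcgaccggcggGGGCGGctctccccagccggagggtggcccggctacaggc
Fosl2, chr5:32133260-32133360, minus strand: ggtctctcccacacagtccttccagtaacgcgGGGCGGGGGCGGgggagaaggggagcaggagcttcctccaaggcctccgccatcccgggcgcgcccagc

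The summit of the Zfp704 window had a Rad21 value of 36.5, an Arid1a summit at 277 bp and no Ctcf summit nearer than 5797 bp. It was classed as a promoter site, though 95242 bp from the nearest coding start. The Zfp704 window is therefore no example of AP-1 letters outside promoters. Ier5 is an immediate early gene, and its summit, 477 bp downstream of the start, had a value of 12.4 with Brg1 at 359 bp, Arid1a at 394 bp and Ctcf 24345 bp away. The Fosl2 summit, of value 11.2, lay 2491 bp upstream of the start with Ctcf at 1085 bp. GC boxes were at 13.5% of the far sites (11.1 to 16.4%) and 5.33% of the near ones, beside 1.03% of autosomal windows. Promoters held 54.9% of the far and 36.2% of the near sites, and this contrast is not given within promoters. Median GC content was 61.7% at far and 55.1% at near promoter sites, and 53.3% at strong promoter summits with Ctcf. GC boxes were at 21.4% of far promoter sites against 14.3% of promoter summits with Ctcf, a difference of 7.19 points (3.10 to 11.9). GC content differed between these sets as well, and its part in the difference was not tested. The AP-1 letters were at 2.87% of all sites, beside 2.96% of all Rad21 summits and 2.97% of autosomal windows, so the set as a whole stood at the background. Outside promoters, 6.71% of far sites had them and 2.95% of near sites, a difference of 3.76 points (1.18 to 7.38) that rests on few sites. For the other motifs the share of all Rad21 summits and then that of autosomal windows is given in brackets. The CCAAT letters of NFY were at 10.4% (11.9%, 15.8%), the CEBP letters TTGCNNAA at 3.15% (3.48%, 4.64%), the FOXA letters TGTTTAC at 0.769% (1.13%, 1.48%) and the HNF4A letters CAAAGTCCA at 0.140% (0.130%, 0.125%). The TEAD letters GGAATG were at 4.86% (5.46%, 5.48%), the RUNX letters TGTGGTT at 2.10% (2.98%, 2.35%) and the ETS letters CCGGAAG at 1.12% (0.736%, 0.286%). The YY1 letters AAGATGGC were at 1.26% (0.933%, 0.863%), the E-box CACGTG at 1.68% (1.58%, 0.992%), the CRE letters TGACGTCA at 0.0700% (0.0929%, 0.0540%), and the NRF1 palindrome at 0.0350% (0.0340%, 0.00612%). The CTCF core and YY1 letters can overlap, as do GC boxes in tandem.

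**Figure D4:**
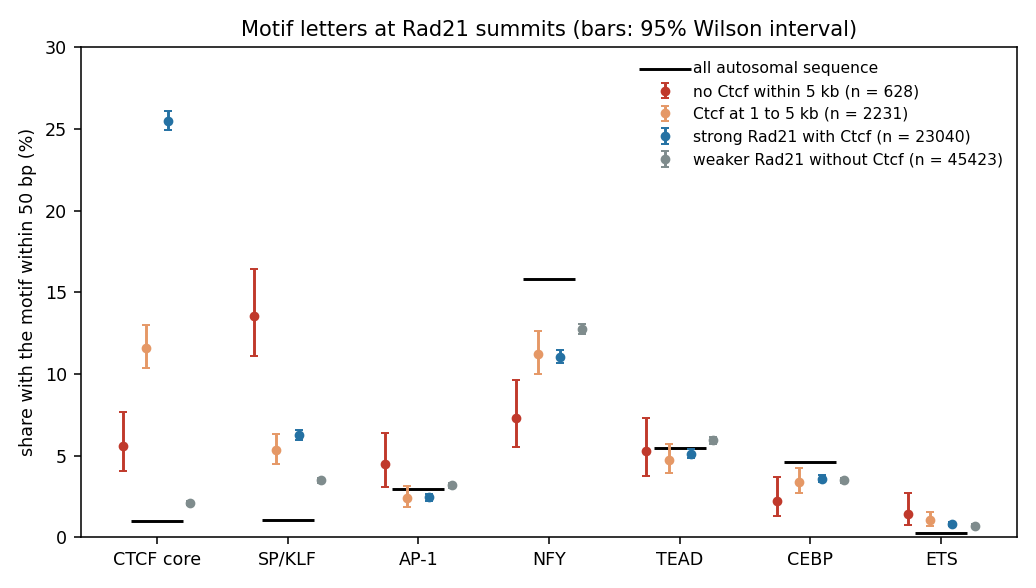
Share (%) of Rad21 summits with the letters of 7 motifs within 50 bp on either strand, for the same 4 sets as the plot of partner shares, with 95% Wilson intervals; black lines give the share of all autosomal windows of 101 bp. The CTCF core is highest at strong summits with Ctcf (25.5%) and the GC box at the sites beyond 5 kb (13.5%), while the TEAD points lie near the line.

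The repressive marks divided the sites further. H3K27me3 lay within 1 kb of 14.0% in WT cells (12.7 to 15.3%) and 11.7% in KO cells (10.6 to 12.9%), beside 12.4% and 9.33% of all Rad21 summits. Beyond 5 kb from Ctcf the WT share was 7.48% and at 1 to 5 kb 15.8%, a difference of -8.29 points (-10.7 to -5.55). Sites with both Brg1 and Arid1a had WT H3K27me3 at 3.75%, and sites with neither at 19.6%, a difference of -15.8 points (-18.2 to -13.1). Conversely, 12.8% of the 399 sites with WT H3K27me3 had Brg1. Brg1 with Arid1a and H3K27me3 were thus seldom found at the same site.

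H3K9me3 was within 1 kb of 32.6% of the sites in WT cells (30.9 to 34.4%) and 9.13% in KO cells (8.13 to 10.2%), beside 25.3% and 9.48% of all Rad21 summits and 10.2% and 9.49% of autosomal bases. The WT share was 51.6% at sites with both Brg1 and Arid1a and 23.9% at sites with neither. The KO shares were 9.38% and 9.47%. The median distance to a coding start was 1074 bp at sites with both proteins and 19556 bp at sites with neither. Among strong summits with Ctcf, WT H3K9me3 was at 35.4% of those at promoters and 17.02% of those outside. The WT contrast between sites with both proteins and with neither is not given within promoters, and the part of promoters in it was not tested. Sites with an H3K9me3 summit in the WT list alone made up 28.1%, those in both lists 4.51% and those in KO alone 4.62%. Of all Rad21 summits 21.1%, 4.196% and 5.285% did, in the same order. The larger WT-only share was thus not particular to these sites. Each list was called against its corresponding input, which by genotype is 1 library for all WT lists and another for the KO lists, so genotype, library and input cannot be told apart. No summit of any of the 6 other lists was within 1 kb of 30.6% of the sites, beside 43.5% of the strong summits with Ctcf.

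A small group of sites stood at the very ends of chromosomes. Of the 10 sites within 10 kb of an end of the sequenced part of their chromosome, 9 lay 124 to 268 bp from the distal end of 9 autosomes, in soft-masked bases. Each of these 9 had the letters TTAGGG in tandem within 250 bp, as had 6 of the 2849 sites elsewhere. The 2 with the highest Rad21 values, chosen after their values were seen, are described here.

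The chromosome 12 site, 204 bp from the sequenced end, had a Rad21 value of 19.97 and H3K9me3 values of 29.3 in WT and 32.9 in KO cells, with summits 7 and 14 bp away. The chromosome 7 site, 268 bp from the end, had a Rad21 value of 19.1 and H3K9me3 values of 27.9 in WT and 46.1 in KO cells. Ctcf lay 46917 and 10354 bp away. Taking all lists, a summit within 1 kb of the distal sequenced end was present on 12 of the 19 autosomes for Rad21, 14 for WT H3K9me3, 13 for KO H3K9me3, 1 each for Brg1 and Arid1a and 0 for Ctcf and H3K27me3. From which chromosome ends the reads came cannot be told apart within soft-masked repeats. Among all sites, 14 had H3K9me3 values of at least 10 in both genotypes, 8 of them at these ends, and all 14 were in soft-masked bases, beside 453 of the other 2845 sites. The remaining 6 were near Gm10718, Gng4, Gm21738, Stx18, Epha4 and Olfr1228.

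Among the single sites, the 10 highest by Rad21 value all had Ctcf at 1 to 5 kb. The highest, 92.4 at chr15:101988353, lay 16129 bp from the start of Krt8, the simple-epithelial keratin 8 gene, with a weak Ctcf summit of 1.95 at 3406 bp and Brg1 no nearer than 4477 bp. The second, 81.5 at chr5:146904568 near Gtf3a, a gene for an RNA polymerase III factor, had Brg1 24 bp away with a value of 4.94 and a Ctcf summit of 71.6 at 1400 bp. P4ha1, a collagen prolyl hydroxylase gene, had a site of 77.9 with a Ctcf summit of 3.83 at 1594 bp. The site of Fam241b, 74.1, had a Ctcf summit of 135 at 3826 bp. Gnai2, an inhibitory G protein gene, had a site of 68.2 with Brg1 at 177 bp, WT H3K27me3 at 361 bp and WT H3K9me3 at 278 bp. Krt80, another keratin gene, had 66.6 with Ctcf at 2192 bp, and Elovl3, a fatty acid elongase gene, had 64.5 with Ctcf at 1816 bp and WT and KO H3K27me3 values of 11.6 and 12.6 at 2354 and 1563 bp. Of these 10 sites Gtf3a and Gnai2 had Brg1 within 1 kb and Slc24a3 had Arid1a, at 225 bp. Brg1 or Arid1a lay within 1 kb of 31.0% of all Rad21 summits and 32.0% of strong summits with Ctcf. Those near D630003M21Rik and Slc24a3 are described above, and that in an intron 3533 bp upstream of the start of Cebpb with the liver factors.

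Sites with both Brg1 and Arid1a had a median Rad21 value of 6.25, as had those with neither, and an upper quartile of 7.71 against 8.76. Their highest, 49.3, had its nearest coding start at Ergic1, a gene of the secretory pathway 53324 bp away, with Brg1 at 90 bp (value 5.79) and Arid1a at 49 bp (2.88). Actb, the beta-actin gene, had a site of 35.3 lying 25816 bp upstream of its start, with Brg1 at 200 bp and Arid1a at 939 bp. Junb, which encodes an AP-1 subunit, had 32.0 in an exon 4257 bp downstream, with Brg1 at 439 bp, Arid1a at 78 bp and a Ctcf summit of 71.8 at 1082 bp, just outside the window. Fam198b had 29.0, Diaph1, an actin-nucleating formin gene, 25.4, and Mcts2 25.4. Tmem119 had 23.6, in a soft-masked base, with H3K9me3 at 205 bp in WT and 341 bp in KO cells. Rac2 had 23.1 and Ssbp4 22.9. Pax3, a paired-box factor gene, had a site of 20.9 with WT H3K27me3 at 238 bp. Of these 10, Rac2 alone had no Ctcf summit within 5 kb. Among the sites beyond 5 kb named after their values were seen, Notch2, a receptor gene, had 14.0 at its promoter with Brg1 at 513 bp and Arid1a at 571 bp, and Adamts8, a metalloprotease gene, had 13.4 with WT and KO H3K27me3 values of 19.5 and 14.8 at 621 and 963 bp.

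The sites were scattered over genes. The nearest protein-coding start named 2352 genes, of which 1944 had 1 site, 335 had 2 and 73 had 3 or more. The genes with most sites had wide surroundings, and the density per Mb for which a gene's start is the nearest one is given beside the count, with 1.16 per Mb over all autosomes. Myc, the growth-driving transcription factor gene, had 8 sites (5.54 per Mb over 1443 kb), all downstream at 5814 to 652535 bp. Their Rad21 values were 5.12 to 8.76. Of the 8, 3 had Brg1 within 1 kb and 3 had Ctcf at 1 to 5 kb. The nearest pair, at 5814 and 6934 bp, had Brg1 at 760 and 261 bp. Cited2, a transcriptional co-regulator gene, had 7 sites (4.55 per Mb), 492571 to 1177090 bp upstream with values of 5.22 to 9.07, of which 5 had Brg1 and 1 had Ctcf at 1 to 5 kb.

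Tcf7l2, the Wnt pathway factor, had 5 sites (10.3 per Mb), the highest of 11.6 in its promoter, 1864 bp downstream of the start, and 3 with Brg1. Fosl2 had 5 (18.7 per Mb), with values of 5.05 to 11.2 and Brg1 at 3, and 3 of them stood within 12021 bp. Phlda1 had 5 (20.02 per Mb), with values of 5.02 to 10.6 from 1743 bp upstream to 133406 bp downstream, and each of the 5 had Brg1 within 1 kb, at 1 to 284 bp. Foxp1, a forkhead repressor gene, tied with them at 5 sites (7.55 per Mb), of which 2 had Brg1. The same 6 genes had 4 to 7 strong Rad21 summits with Ctcf each over the same surroundings.

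Sites chained at gaps of up to 20 kb gave 2547 clusters, of which 2283 were single, 223 were pairs and 41 held 3 or more, with 4 at most. The 5 shortest clusters of 4 are named. The shortest was in Mcoln2, a lysosomal channel gene, where 4 sites of 6.15 to 44.3 spanned 5093 bp. Neither Ctcf nor Brg1 summits lay in the span, but a Ctcf summit of 170 lay 2216 bp from its first site. The next, near Sft2d3 and Lims2, spanned 9829 bp with values of 5.47 to 7.33. The cluster near Gsdme, the gasdermin E gene, spanned 10509 bp (5.38 to 16.3), that near Cerk, the ceramide kinase gene, 11465 bp (5.64 to 6.65), and that near Ybx2 and Slc2a4, the insulin-responsive glucose transporter gene, 19517 bp (5.12 to 9.58). None of these 5 had a site with Brg1 within 1 kb. Their sites all had Ctcf at 1 to 5 kb, except a site near Lims2 with Ctcf at 5934 bp. Clusters of 3 were tighter near Ripor3 (2048 bp, 5.12 to 6.93), 4930467E23Rik (2088 bp, 6.85 to 18.2) and Adamts8 (3297 bp).

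For groups of genes, the number with a site within 10 kb of the outermost start was counted in 11 lists, beside 7.15% of the 20780 autosomal protein-coding genes (1485 genes). Strong summits with Ctcf were near 37.4% of genes, and near 15 of 22 AP-1 and immediate early, 18 of 24 Ras-MAPK, 11 of 14 Yap-Tead and 19 of 26 epithelial-mesenchymal and matrix genes, so these lists stood above the background of both kinds of Rad21 summit. Sites beyond 5 kb from Ctcf were near 1.61% of genes, and near 2, 1, 3 and 3 genes of the same lists. AP-1 and immediate early genes had a site at 8 of 22. Apart from Junb, Fosl2 and Ier5 these were Klf6 (10.6), Jund (8.19, Brg1 at 297 bp with a value of 7.21), Myc (7.90), Ier3 (7.06, Brg1 at 217 bp) and Maff (5.503), with the Rad21 value in brackets. Genes induced by or feeding back on Ras-MAPK signalling had one at 6 of 24. Dusp6, an Erk phosphatase gene, had a site of 14.2 lying 395 bp downstream of its start, with Brg1 at 812 bp (value 9.78). Dusp4, a related phosphatase, had 7.20, Areg, an Egf receptor ligand, 5.70 with Brg1 at 51 bp, and Spry2, an inhibitor of the pathway, 5.47. Epha2 and Phlda1 had 5.15 and 5.02.

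Yap-Tead target genes had one at 5 of 14, with 2 symbols unmatched: Tead1 (6.25), Wwc1 (6.10), Nuak2 (6.05), Crim1 (5.47) and Ankrd1 (5.22, Brg1 at 281 bp, Arid1a at 46 bp). Epithelial-mesenchymal and matrix genes had one at 8 of 26. Cdh2, the N-cadherin gene, had 18.7 with Brg1 at 746 bp, Col1a1, a collagen gene, 10.9, Tgfb1 7.90 and Cd44, a hyaluronan receptor gene, 7.22 with Brg1 at 50 bp and Ctcf no nearer than 47325 bp. Krt18, Fn1, S100a4 and Zeb2 had 5.47 to 7.14. These lists were chosen with earlier results known, and genes of wider surroundings are counted more easily, so their counts describe these sites and are no test.

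Transcription factors of hepatocytes had a site at 4 of 21. Cebpb, a bZIP factor gene, had the highest, 66.1, with a Ctcf summit of 61.0 at 3305 bp and Brg1 at 3548 bp. Nr1i3, a nuclear receptor gene, had 19.8 with Ctcf at 1114 bp, and the same site lay 2283 bp upstream of Apoa2. Foxa2, a forkhead factor gene, had 9.53 with Brg1 at 14 bp and Arid1a at 444 bp, and Rxra, a nuclear receptor partner, 7.06 with Arid1a at 54 bp and Ctcf 21465 bp away. Plasma protein genes had one at 3 of 25, which besides Apoa2 were Fgg, a fibrinogen chain gene, with 13.5 and Vtn, the vitronectin gene, with 7.90. Cohesin, loader and Ctcf genes had one at 1 of 12, Pds5b (5.30), and SWI/SNF subunit genes at 1 of 25, Brd7 (6.25). Ribosomal protein genes had one at 7 of 79, led by Rpl37a (14.5), Rpl3 (7.22) and Rpl21 (7.20). Histone genes had one at 6 of 67, where 1 site of 5.83 served Hist2h2ab, Hist2h2ac and Hist2h2be and 1 of 5.47 served Hist1h2ah and Hist1h2bk. Olfactory receptor genes had one at 3 of 1086, Olfr1371 (13.8), Olfr159 (7.20) and Olfr56 (5.10).

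**Figure D5:**
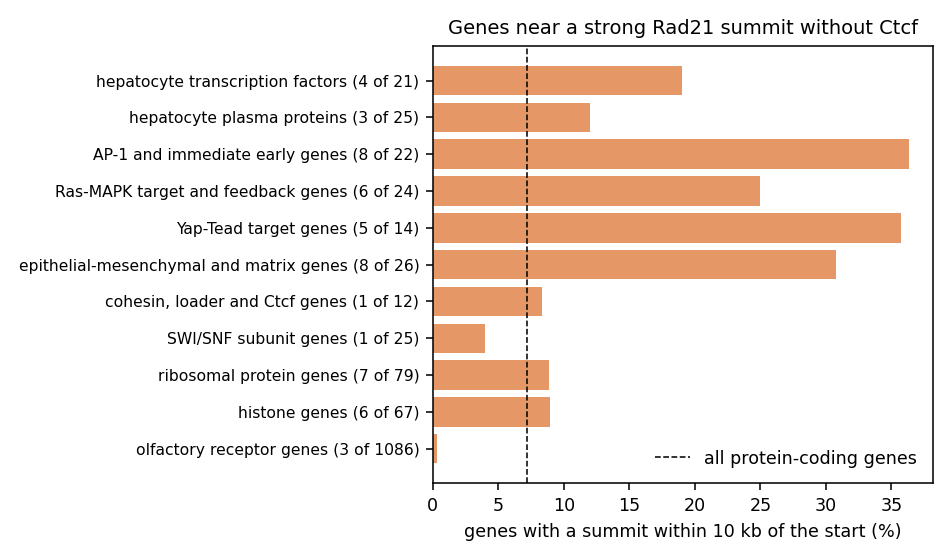
Share (%) of the genes of each of 11 lists with a site within 10 kb of the start, with the counts in the labels; the dashed line gives the 7.15% of all autosomal protein-coding genes. The bars of AP-1 and immediate early genes (8 of 22) and Yap-Tead genes (5 of 14) are the longest and that of olfactory receptor genes (3 of 1086) the shortest.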

How the data were processed

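The peak lists of 8 ChIP-seq libraries of AB17 cells were read: Rad21, Ctcf, Brg1 and Arid1a in WT cells, and H3K27me3 and H3K9me3 in WT and KO cells. To make them, the authors mapped the reads with bowtie2 (mm10), filtered on quality in SAMtools, dropped duplicates in Picard and ran MACS2 with its defaults on each library against its input, as the methods of the study describe. Tool versions are not given in the sources used here. The deposited lists have no header, and the value column was read as a −log10 q-value, because its lowest values stood at 1.30 to 1.31, the −log10 of 0.05. Each row is a summit of 1 base. Values grow with depth, which is unknown.

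Summits were grouped by the samples' labels, with 1 library per group. Summit distances, 95% Wilson intervals of shares and 95% Newcombe intervals of differences were computed in Python 3.11.15 with numpy 2.4.6 and pandas 2.3.3, after the functions were tested on simulated data, and figures were drawn with matplotlib 3.10.9. Intervals cover counting error only, and neighbouring summits are not independent. GENCODE vM21 and GRCm38.p6 (the sequence of mm10) gave genes and sequence, and 0 summits lay past a chromosome end. Sites were classed as promoter, exon, intron or intergenic, in that order. Motifs were searched on both strands within 50 bp, and all autosomal tiles of 101 bp were the background. Named were the 10 highest sites, the 10 highest with Brg1 and Arid1a, the 5 highest promoter and the 5 highest distal sites (over 10 kb from coding starts) outside repeats, the 5 clusters with most sites, taking the shortest spans,, up to 4 genes per list and the 5 genes with most sites. The sites, gene lists and motifs were chosen with earlier results of these data known. Printed windows overlap no annotated UTR. The inputs were not analysed here. Some items are not reported here.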

Additional observations from a re-analysis of the deposited data

Results flagged for a closer look

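The rule took autosomes only, so signal on the sex chromosomes lay outside every comparison above. Chromosome X held 27 strong Rad21 summits with no Ctcf summit within 1 kb, of 563 strong summits there, and chromosome Y held 9 of 35. These counts are given as values only and were compared with nothing.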

How the results depend on the processing

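Of 64 alternative values, 46 moved beyond the counting interval of a reported share or, for a number of sites or genes, by over 1.5 times, and 18 did not. With a Rad21 value of at least 10, 522 sites remained, with Brg1 at 25.1%, Arid1a at 17.8%, both at 11.1%, H3K27me3 at 18.4% (WT) and 14.6% (KO), H3K9me3 at 28.5% (WT) and 7.28% (KO), promoters at 32.4%, the CTCF core at 27.2% and 13 listed genes with a site, where 52 were reported. With no Ctcf summit within 5 kb there were 628 sites, with Brg1 at 49.0%, Arid1a at 41.2%, both at 30.3%, H3K27me3 at 7.48% and 6.53%, H3K9me3 at 42.4% and 14.0%, promoters at 54.9%, AP-1 letters at 4.46%, the CTCF core at 5.57% and 12 listed genes. Partner summits within 500 bp gave 22.5% for Brg1, 19.9% for Arid1a, 10.8% for both, 7.90% and 6.68% for H3K27me3 and 21.2% and 5.35% for H3K9me3. Partner values of at least 3 gave 19.2%, 13.7%, 8.43%, 7.49%, 6.68%, 12.8% and 3.43% in the same order. Without sites in soft-masked bases Brg1 was at 34.7%, Arid1a at 29.1%, both at 20.2%, KO H3K9me3 at 7.61% and promoters at 43.1%. Promoters of 1 kb held 30.5%, motif windows of 150 bp gave 8.88% for AP-1 and 18.9% for the CTCF core, and a gene window of 50 kb gave 124 listed genes. Narrower windows and stricter limits count fewer summits by construction, and for the other moves the cause was not tested. Merging sites within 1 kb of each other gave 2825 sites and moved no share beyond its interval, and leaving out soft-masked bases gave 2392 sites.

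No paired analysis was possible because each group had 1 library and the labels carry no replicate numbers, and with 1 library per group none was left out. Depth is unknown, so a Ctcf or Brg1 summit missing from a list was below the caller's threshold and is not shown to be absent. The motif and chromosome-end descriptions chosen after their values were seen have no independent check.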
